A study of Homo sapiens with 5 samples.

Results

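The arrays compared were those of PC-3 cells that carried a short hairpin RNA. Of these, 2 were labelled shTRIB1-1 and shTRIB1-2, for different hairpins against TRIB1, and 1 was labelled shGFP, for a control hairpin against the jellyfish protein GFP. They are 3 of the 5 arrays of the series, chosen by their titles. PC-3 is an androgen-independent human prostate cancer line from a bone metastasis. The other 2 arrays held PC-3 cells without a hairpin, grown flat (2D) or as spheroids, and the 2D array is used below as a second point of reference. Per the labels, all the cells were grown in dishes and had no further treatment, and the shTRIB1 lines were marked as depleted of TRIB1. The comparison asks which genes depend on TRIB1. The labels name no hairpin sequence or vector and do not say whether each line is a clone or a pool. Nothing in the labels says that the arrays came from separate cultures, so the spread between them may be technical. The log2 of a probe set's intensity is called its level here. Of 19775 genes with a probe set of their own, 10522 had a level of at least 6 on at least 1 of the 3 arrays, and these are the genes described.

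TRIB1 encodes a pseudokinase, a protein with a kinase fold that acts as a scaffold. It links the ubiquitin ligase COP1 to its substrates, best known among them the transcription factor C/EBP alpha, and it binds the MAP kinase kinase MEK1. Its relative TRIB3 is a gene of the integrated stress response, in which phosphorylation of eIF2 alpha slows translation while ATF4 turns on genes of amino acid supply. The unfolded protein response of the endoplasmic reticulum (ER) works beside it: the sensors ATF6, IRE1 and PERK answer to unfolded protein, and ATF6 and XBP1 turn on the chaperones that fold secreted proteins.

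The TRIB1 signal was close to equal on the 3 arrays. Its level was 11.97 with shGFP, 11.91 with shTRIB1-1 and 11.76 with shTRIB1-2. Both labelled arrays lay below shGFP, by differences of -0.06 and -0.20, and the mean fold was 1.09 (log2 SD 0.10 between the hairpins, n = 2). In limma, fitted over all genes, the unadjusted p was 0.371. The 2D array was lower than all of them at 11.04. The array thus shows no clear depletion of this messenger RNA, so each direction below is that of the labelled array. The sites of the hairpins and probes on the transcript were not known here, and TRIB1 protein was not measured.

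Epithelial and mesenchymal genes known from PC-3 were well measured, and markers of other cells were nearly all below the level minimum. All 9 identity genes had a level of at least 6, KRT18 at 13.19 with shGFP, 13.03 with shTRIB1-1 and 13.04 with shTRIB1-2, and EPCAM at 11.86, 11.78 and 11.28. Of 12 blood and endothelial markers, 10 had a probe set of their own and 2 of these reached the minimum. PECAM1 (6.62, 5.70 and 6.31) and HBB (6.15, 6.25 and 6.15) were close to the minimum. Of 10 fibroblast markers 1 reached it, COL1A1. The minimum was reached by 36.06% to 36.60% of an array's probe sets, and the median intensity was between 32.97 and 33.36. The actin 5' to 3' signal ratio, a sign of RNA and labelling quality, was 0.436 to 0.445 on the 3 hairpin arrays, against 0.184 on the 2D array. A spike added to every sample, thr, gave 0.217 to 0.269 against 0.113. For GAPDH the ratio was 0.929 to 0.944 against 0.895, a smaller gap. No label names a batch. The part of these differences in the comparisons with 2D below was not tested.

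At least 2-fold higher on both labelled arrays were 38 genes, 0.361% of those tested, and at least 2-fold lower on both were 9 genes, 0.0855%. Of the 38, 15 had an shGFP level below 6 and so passed the level minimum through the arrays on which they were high, and 2 of the 9 passed it through shGFP alone. The counts of the 2 directions are therefore not compared. Members of the lists below with shGFP under 6 likewise passed the minimum through an array on which they were higher. Each hairpin alone gave more. With shTRIB1-1, 210 genes (2.00%) were at least 2-fold higher and 196 (1.86%) lower. With shTRIB1-2, 141 (1.34%) were higher and 86 (0.817%) lower. The hairpins opposed each other at 2-fold on 18 genes. The gap between them was 0.202 at the median gene and 0.715 at the 90th percentile, and 532 genes had a gap of at least 1. By sign alone, 2634 genes (25.0%) were higher on both and 3655 (34.7%) lower on both. Limma with Benjamini-Hochberg adjustment called 0 genes. Its adjusted p-values started at 0.951, and at 0.557 to 0.991 under other settings. Unadjusted, 356 genes (3.38%) had a limma p under 0.05, of which 191 were higher and 165 lower. Below, "higher on both" and "lower on both" therefore describe the 2 labelled arrays against a single shGFP array. The SD given is the spread between the hairpins and holds nothing of the spread of shGFP, which both differences share.

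**Figure D1:**
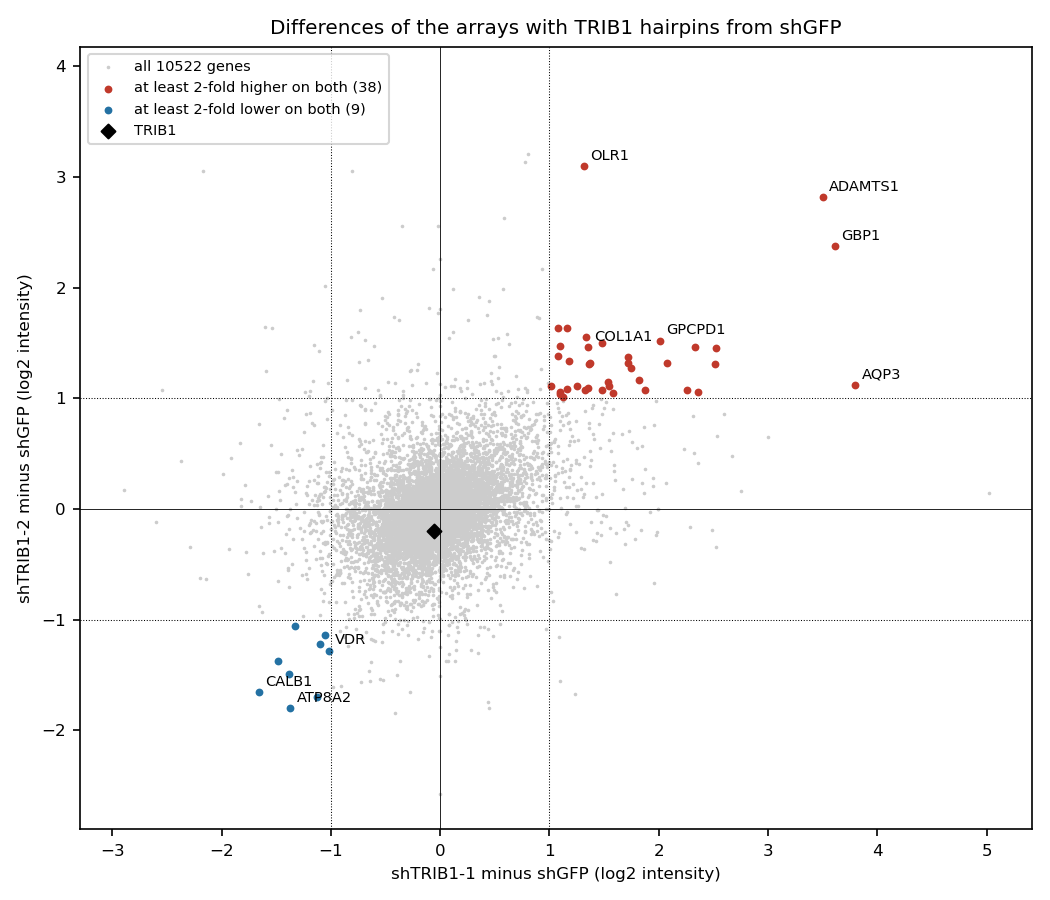
Difference of each of 10522 genes from shGFP (log2 intensity), shTRIB1-1 on the x axis and shTRIB1-2 on the y axis, with dotted lines at a 2-fold difference. Red points are the 38 genes at least 2-fold higher on both, blue points the 9 lower on both, and the black diamond is TRIB1, which lies next to the origin at -0.06 and -0.20.

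The highest genes are described by role, starting with the matrix and the cell surface. ADAMTS1, a secreted metalloprotease, had a level of 4.39 with shGFP, 7.89 with shTRIB1-1 and 7.21 with shTRIB1-2. Its 2D level (4.31) was as low as that of shGFP, and the mean fold was 8.96 (log2 SD 0.48, n = 2). COL1A1, the alpha-1 chain of type I collagen, was at 6.95, 8.30 and 8.41. Both labelled arrays were higher by nearly the same amount on this probe set (2.65-fold), but no other COL1A1 probe set showed a difference as large. The differences of those that reached the minimum were 0.11 and 0.00, and -0.05 and 0.00, and the median over all COL1A1 probe sets gave a mean difference of 0.0565 in place of 1.41. FSTL1, a secreted glycoprotein, was at 9.20, 10.57 and 10.52, or 2.54-fold. CCDC80, a matrix protein, was at 4.85, 6.01 and 6.48. HEG1, a membrane mucin known from heart and vessel development, was at 6.36, 7.84 and 7.86, the hairpins within 0.02 of each other in SD and 2.81-fold above shGFP. NT5E (CD73), the surface enzyme that makes adenosine from AMP, was at 6.30, 8.12 and 7.47, and the 2D array (7.38) lay near the second hairpin.

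Next come channels, transporters and receptors. AQP3, a water and glycerol channel, had 6.24 with shGFP, 10.04 with shTRIB1-1 and 7.37 with shTRIB1-2. The hairpins agreed in direction and differed in size on this probe set, with 13.9-fold and 2.18-fold. The other AQP3 probe sets showed much less, with differences of 0.71 and 0.16, and of 0.48 and 0.14, and the median over probe sets was 0.433 in place of 2.46. OLR1, the receptor for oxidised LDL, ran the other way at 4.48, 5.79 and 7.57, which is 2.49-fold and 8.56-fold. SLC16A14, an orphan member of the monocarboxylate transporter family, was at 4.96, 6.68 and 6.34, but the 2D array (6.56) lay between the labelled arrays. The scaffold of synapses SHANK2 was at 7.42, 8.67 and 8.53, with 2D at 6.74.

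Among signalling and stress genes, TNFAIP3 (A20), a ubiquitin-editing enzyme that restrains NF-kB, was at 6.36 with shGFP, 8.43 with shTRIB1-1 and 7.67 with shTRIB1-2, and at 5.71 in 2D. RGS4, which speeds the shut-off of G protein signals, was at 5.99, 8.51 and 7.44 (3.97-fold, SD 0.75). RASD1, a Ras-like protein induced by glucocorticoids, was at 5.77, 7.14 and 7.08, the hairpins nearly alike. RHOB, a small GTPase of endosomes and stress, was at 7.55, 9.09 and 8.70, with 2D well below at 5.92. PKIA, an inhibitor of protein kinase A, was higher than its shGFP level of 7.66 by 1.18 and 1.33. TXNIP, which binds thioredoxin and limits glucose uptake, was at 8.13, 10.65 and 9.44. Both labelled arrays were above shGFP, and the 2D array was above all of them at 11.00.

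Immune genes among the highest were GBP1, TRIM31 and CCL26. GBP1, an interferon-induced GTPase, was at 5.08 with shGFP, 8.69 with shTRIB1-1 and 7.46 with shTRIB1-2, and at 7.07 in 2D. The labelled arrays were 7.96-fold above shGFP on the mean (SD 0.87), and its other 2 probe sets that reached the minimum gave differences of 3.45 and 2.13, and of 3.25 and 1.97. The ubiquitin ligase TRIM31 was at 5.93, 7.67 and 7.20. The eotaxin CCL26 was at 5.33, 6.41 and 6.97. Both were higher with each hairpin than on the shGFP or 2D array.

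Nuclear proteins and enzymes completed the highest genes. GPCPD1, a glycerophosphocholine phosphodiesterase, was at 8.54 with shGFP, 10.54 with shTRIB1-1 and 10.06 with shTRIB1-2, and close to shGFP in 2D at 8.56 (3.40-fold, SD 0.35). HDAC9, a class II histone deacetylase, was at 5.88, 8.21 and 7.34, and ZNF91, a KRAB zinc finger repressor of retroelements, at 8.52, 9.86 and 10.08. Both labelled arrays stood above shGFP and 2D for both genes. CREB5, a leucine zipper factor, was at 4.57, 6.11 and 5.68, of which only the first hairpin passed 6. JAZF1, a zinc finger cofactor, was at 6.41, 7.73 and 7.49, and MSRB3, which repairs oxidised methionine, at 6.68, 8.16 and 7.75. The kinase-like DIPK1A was at 7.32, 9.05 and 8.64. VASH2, a vasohibin that trims tubulin, was at 5.33, 6.42 and 6.80, below its 2D level of 7.19. KLHL15, a cullin adaptor, was at 7.11, 8.19 and 8.49, and OTULINL at 7.12, 8.48 and 8.21. The non-coding LINC01293 was near the minimum at 4.86, 6.02 and 5.94.

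Of the 38 genes, 28 had the larger difference on shTRIB1-1. For the 15 with shGFP below 6, the size of the difference rests on a signal near background. Of 24 with several probe sets at the minimum, 23 had all of these higher on both, COL1A1 being the exception.

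The 9 genes at least 2-fold lower on both were led by CALB1, a calcium-buffering protein. Its level was 11.87 with shGFP, 10.21 with shTRIB1-1 and 10.21 with shTRIB1-2. The hairpins gave the same value to 2 decimals, 3.15-fold below shGFP, but the 2D array was lower still at 8.55, so shGFP stood highest of the 4. The second CALB1 probe set gave differences of -1.36 and -1.23. SLITRK6, a neuronal membrane protein, was at 9.56, 8.17 and 8.07, and 2D lay between at 8.64. SHISA2, which holds back Wnt and FGF receptors in the ER, was at 10.04, 8.55 and 8.67, and here 2D (9.96) was within 0.1 of shGFP.

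PRKAR2A, the RII-alpha regulatory subunit of protein kinase A, was at 10.90 with shGFP, 9.78 with shTRIB1-1 and 9.21 with shTRIB1-2. The 2D level was 10.99, next to shGFP, and all 5 probe sets were lower on both labelled arrays. The vitamin D receptor VDR was at 8.78, 7.76 and 7.50, with 2D at 9.12. A second VDR probe set was lower by the same order, with differences of -1.03 and -1.09, while those of the other 2, near background, were -0.19 and -0.07, and 0.00 and 0.02. TSNARE1 was at 7.93, 6.83 and 6.71, and ATP8A2, a lipid flippase, at 6.71, 5.34 and 4.92. LRRC34 was at 6.02, 4.97 and 4.89. For ATP8A2 and LRRC34 both labelled arrays were below 6. CHAC1, which degrades glutathione, is a gene of the integrated stress response, at 8.31, 6.98 and 7.25. Its 2D level was as low as 6.91.

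The next genes in order had a 2-fold difference on at most 1 hairpin. TLR4, the endotoxin receptor, had 6.51 with shGFP, 5.53 with shTRIB1-1 and 4.90 with shTRIB1-2. NOG, the BMP antagonist noggin, was at 9.20, 8.36 and 8.26, and PRICKLE1, of planar cell polarity, at 9.10, 8.30 and 8.30, and at 8.30 in 2D too. S100A4, a calcium-binding protein of motile cells, was at 10.88, 9.22 and 10.00. The hairpins differed from each other by about as much for S100A4 as the second did from shGFP. RGS7 was at 7.11, 6.02 and 6.16, opposite in direction to RGS4 of the same family. AK3, a mitochondrial adenylate kinase, was at 10.92, 9.90 and 10.08, and SYBU, which links vesicles to kinesin, at 8.37, 7.52 and 7.13. The ubiquitin ligase RNF41 was at 7.14, 6.23 and 6.04, and the imprinted gene PEG3 at 7.04, 5.97 and 6.21. The mitosis genes SKA1 (6.65, 5.78 and 5.58) and KIF18A (7.88, 7.09 and 6.90) were also among the 30 lowest. So were the ER genes SDF2L1, HERPUD1, CRELD2 and PDIA4 and the amino acid transporter subunit SLC3A2, described below.

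Of the 9 lower genes, 5 had several probe sets at the minimum, and in 4 of these all were lower on both, TSNARE1 being the exception. The median over probe sets brought TSNARE1 to -0.0217, PRKAR2A to -0.685 and VDR to -0.595.

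**Figure D2:**
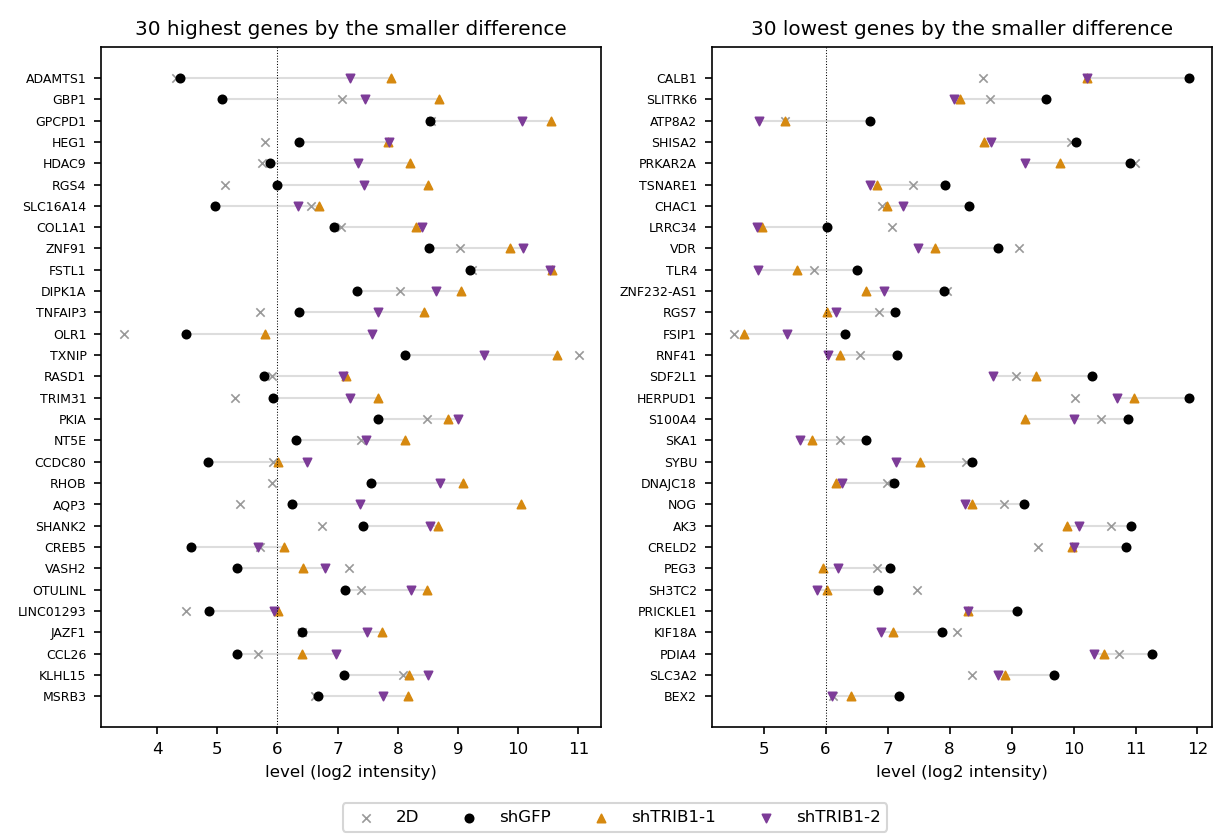
Level (log2 intensity, x axis) of the 30 highest and 30 lowest genes (y axis) on the shGFP, shTRIB1-1, shTRIB1-2 and 2D arrays, ordered by the difference closer to 0; the dotted line marks the level minimum of 6. The coloured triangles lie to the right of the black shGFP point on the left and to its left on the right, while the grey 2D cross falls on either side, as for TXNIP (11.00) and CALB1 (8.55).

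The chaperones and folding enzymes of the ER were lower with both TRIB1 hairpins. Of 23 measured, 20 were lower on both labelled arrays and 0 higher on both (34.7% and 25.0% of all genes). The median difference was -0.387 with shTRIB1-1 and -0.538 with shTRIB1-2, against -0.0270 and -0.00947 over all genes. Limma called 0 of the 23. The shift was modest in size and shared by most members. This list and those below were chosen with earlier results of these data known, so their counts are a description only.

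Promoters are shown for chaperone genes because a published sequence, the ER stress element that ATF6 and XBP1 are known to act through, recurs in them. Its letters, CCAAT and CCACG with any 9 bases between them, were searched on both strands of the window from 250 bases before to 50 after the RefSeq start site (GRCh38.p14), and capitals mark the match. Each line reads in the direction of the gene. HSPA5 is on the minus strand of chromosome 9 (125241367 to 125241433), HSP90B1 on the plus strand of 12 (103930297 to 103930363), PDIA6 on the minus strand of 2 (10812829 to 10812895) and CRELD2 on the plus strand of 22 (49918530 to 49918596). CALR is on the plus strand of 19 (12938360 to 12938426) and CANX on the plus strand of 5 (179698754 to 179698820). In HSP90B1, CRELD2 and CALR the letters match on the opposite strand and so appear as their reverse complement.
HSPA5: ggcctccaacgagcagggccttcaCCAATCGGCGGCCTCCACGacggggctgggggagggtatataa
HSP90B1: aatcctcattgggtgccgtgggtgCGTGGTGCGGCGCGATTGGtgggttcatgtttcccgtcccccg
PDIA6: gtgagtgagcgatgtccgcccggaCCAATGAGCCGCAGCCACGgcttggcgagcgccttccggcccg
CRELD2: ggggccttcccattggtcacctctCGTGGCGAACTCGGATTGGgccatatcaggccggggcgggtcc
CALR: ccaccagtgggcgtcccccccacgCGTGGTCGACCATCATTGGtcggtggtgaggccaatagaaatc
CANX: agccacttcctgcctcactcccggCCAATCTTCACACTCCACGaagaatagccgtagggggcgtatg

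The genes behind these promoters were all lower with both hairpins. They were chosen after their values were seen, so their common direction is a description only. HSPA5 (BiP), the main chaperone of the ER lumen, was at 13.65 with shGFP, 13.15 with shTRIB1-1 and 13.18 with shTRIB1-2. HSP90B1 (GRP94), the ER form of HSP90, was at 11.31, 10.68 and 10.53. The disulfide isomerase PDIA6 was at 12.03, 11.53 and 11.20, and CRELD2, a secreted stress protein, at 10.84, 9.97 and 10.01. Of these, CRELD2 had the largest mean fold, 1.81 (SD 0.02). The lectin chaperones CALR (10.46, 9.96 and 9.92) and CANX (12.31, 11.93 and 11.87), which hold glycoproteins during folding, were lower on both as well. ERO1B, the remaining gene of the chaperone list with the element, is not printed and differed by -0.79 and -0.04.

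Over all promoters the element is rare. It was found in 27 of 35116 windows (0.0769%). Of the genes described, 8723 had a window and 14 of these held the element, and 11 of the 14 were lower on both (78.6%), 1 was higher and 2 were split. Their median difference was -0.355 against shGFP but 0.299 against 2D, so its sign depended on the reference array. Among genes without the element 35.2% were lower on both, with a median of -0.0298. The 14 genes overlap the chaperone list, which gives 7 of them. The 15 chaperone genes whose window lacks these letters had a median of -0.356, against -0.518 for the 7 with it, and 12 of the 15 were lower on both. Outside the list, and named here for their promoters after their values were seen, XBP1 differed by -0.22 and -0.28, SERP1, of the translocation pore, by -0.31 and -0.29, FICD, which modifies BiP, by -0.13 and -0.41, and the antiviral TRIM5 by -0.25 and -0.30. TMEM120A, by 0.49 and 0.09, was the 1 that was higher on both. A match of letters is a description of the sequence only.

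**Figure D3:**
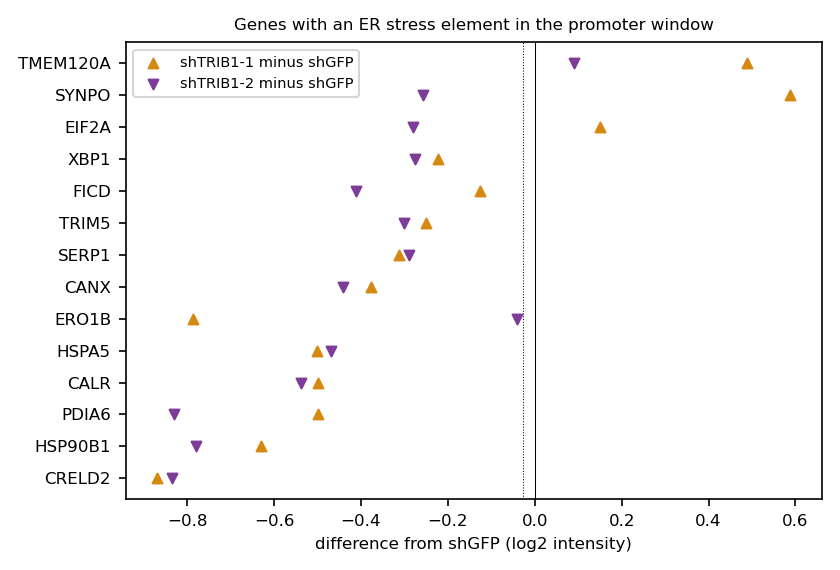
Difference from shGFP (log2 intensity, x axis) with shTRIB1-1 and shTRIB1-2 of the 14 measured genes (y axis) that hold the ER stress element; the dotted line marks the median over all genes, -0.0271. Both triangles lie below 0 for 11 genes and above it for TMEM120A alone.

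Other ER folding genes behaved in the same way. SDF2L1, a partner of the BiP co-chaperones, was at 10.30 with shGFP, 9.40 with shTRIB1-1 and 8.71 with shTRIB1-2 (2.38-fold, SD 0.49). PDIA4 was at 11.27, 10.49 and 10.32, HYOU1, the nucleotide exchange factor of BiP, at 8.88, 8.14 and 8.01, and the secreted stress factor MANF at 12.14, 11.39 and 11.22. All were lower on both labelled arrays by 1.67-fold or more. The isomerase P4HB (10.98, 11.23 and 10.97) and SDF2 (8.75, 8.88 and 8.60) were split between the hairpins. Set against 2D, shGFP itself was higher in 23 of 23 chaperone genes, with a median of 0.537 (49.9% of all genes were higher). The labelled arrays were near 2D, with a median of 0.0728, 11 genes higher than 2D on both (34.2% of all genes) and 6 lower (37.2%). The shGFP array enters both comparisons, and with 1 array of each kind a high shGFP array and low shTRIB1 arrays cannot be told apart.

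ER-associated degradation, which pulls misfolded proteins out of the ER, differed between the hairpins. Of 17 genes, 11 were lower on both (34.7% of all genes) and 1 higher. The median was -0.225 with shTRIB1-2, but -0.0369 with shTRIB1-1, near that of all genes (-0.0270). HERPUD1, a scaffold of the degradation complex, led with 11.86 on shGFP, 10.98 on shTRIB1-1 and 10.70 on shTRIB1-2, 2.03-fold. SEL1L, the partner of the ligase HRD1, differed by -0.65 and -0.46 and the mannosidase-like EDEM2 by -0.33 and -0.34, while SELENOS was split at 0.14 and -0.45. Of 12 sensors and factors of the response, 7 were lower on both and 2 higher. DDIT3 (CHOP), its pro-apoptotic factor, was at 10.73, 10.25 and 9.80, and far below that in 2D at 8.51. The sensor ATF6 differed by -0.34 and -0.16. The sensor PERK (EIF2AK3) was higher, by 0.31 and 0.09, and the sensor IRE1 (ERN1) was split at 0.49 and -0.04. Against 2D the medians of these lists on the labelled arrays were positive, 0.289 for degradation and 0.512 for the sensors and factors, and against the mean of shGFP and 2D they were 0.0834 and 0.247. HERPUD1 was at 0.822 and CRELD2, of the chaperones, at 0.569 against 2D. The chaperones of the cytosol and mitochondria showed no common direction: of 16, 5 were higher on both and 6 lower. Among them DNAJB4 was higher by 0.95 and 0.80, and HSPA9, the mitochondrial HSP70, differed by -0.14 and -0.08.

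Genes of the ATF4 pathway were lower as well. Of 24 genes, 16 were lower with each hairpin and 1 was higher with each (34.7% and 25.0% of all genes). The medians were -0.492 and -0.274. TRIB3, the relative of TRIB1 that holds ATF4 in check, was at 11.96 with shGFP, 10.88 with shTRIB1-1 and 11.25 with shTRIB1-2, and at 10.74 in 2D. ASNS, asparagine synthetase, was at 12.15, 11.24 and 11.68, and NUPR1, a stress-induced chromatin protein, at 10.16, 9.45 and 9.58. For each of the 3 genes shGFP was the highest of the 4 arrays. SLC3A2, the heavy chain of the large neutral amino acid transporters, was at 9.68, 8.90 and 8.77, and SLC7A1, the arginine and lysine transporter, at 11.15, 10.59 and 10.50. The serine enzymes PSAT1 (-0.79 and 0.05) and PSPH (-0.43 and 0.06) were lower with the first hairpin alone. The shGFP array was above 2D in 24 of 24 genes, by a median of 0.612, and the labelled arrays by a median of 0.214.

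The aminoacyl-tRNA synthetases, which charge transfer RNAs and include known ATF4 targets, were lower on both in 14 of 17 and higher on both in 0. Over all genes 34.7% were lower on both and 25.0% higher. The medians of the synthetases were -0.312 and -0.214. GARS1, for glycine, was at 12.43 with shGFP, 11.93 with shTRIB1-1 and 12.13 with shTRIB1-2, and IARS1, for isoleucine, at 12.56, 11.72 and 12.34. The phenylalanine enzyme's subunits FARSA (9.68, 9.29 and 9.23) and FARSB (10.32, 10.09 and 9.89) and the tryptophan enzyme WARS1 (10.03, 9.71 and 9.47) were lower on both with the second hairpin further from shGFP. The asparagine enzyme NARS1 was split, at -0.25 and 0.02.

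The amino acid response element TGATGNAA, read by ATF4 with a C/EBP partner, is shown for CHAC1 (plus strand of chromosome 15, 40953238 to 40953293, letters on the opposite strand) and ASNS (minus strand of 7, 97872445 to 97872500), because both are textbook targets.
CHAC1: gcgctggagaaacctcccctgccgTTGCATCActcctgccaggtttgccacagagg
ASNS: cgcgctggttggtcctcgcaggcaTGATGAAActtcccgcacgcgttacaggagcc
It occurred in 3.62% of all windows and in 2.79% of measured genes with a window. In the ATF4 list 6 of 19 genes with a window held it, 4 of them lower on both and 0 higher, and among the synthetases 6 of 14, 5 of them lower on both. Over all 243 measured genes with the element 34.2% were lower on both, near the 35.3% among genes without it.

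Every measured gene of the mitosis list was lower with both hairpins. All 29 were lower on both labelled arrays (34.7% of all genes), with medians of -0.438 and -0.637. MKI67, the Ki-67 proliferation antigen, was at 8.88 with shGFP, 8.35 with shTRIB1-1 and 8.37 with shTRIB1-2. The kinesin KIF20A was at 8.55, 7.94 and 7.60, the kinetochore proteins CENPF at 9.65, 9.03 and 9.03 and CENPE at 8.48, 7.96 and 7.72, and KNL1 at 8.09, 7.53 and 7.52. The spindle protein DLGAP5 was at 10.00, 9.46 and 9.21. The hairpins agreed closely for CENPF, KNL1 and MKI67. KIF14 (9.47, 9.06 and 8.47) was lower with each and further from shGFP with the second. SPC25 (8.17, 8.07 and 7.43) was lower mainly with the second. The 2D array was higher than shGFP for all 29, so that the order was 2D, then shGFP, then the labelled arrays: shGFP lay below 2D by a median of -0.69 and the labelled arrays by -1.18. In RNA from whole cultures, fewer dividing cells and less of these RNAs per cell cannot be told apart.

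The cell cycle homology region TTTGAA, an element of genes that peak in G2 and mitosis, is shown for 3 members on the plus strand of chromosome 15: CCNB2 (59105093 to 59105145), BUB1B (40161022 to 40161068) and KIF23 (69414270 to 69414323).
CCNB2: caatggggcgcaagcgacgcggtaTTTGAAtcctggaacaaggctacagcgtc
BUB1B: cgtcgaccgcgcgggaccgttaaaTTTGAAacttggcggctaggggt
KIF23: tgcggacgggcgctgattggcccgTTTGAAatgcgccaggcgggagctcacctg
CCNB2, cyclin B2, was at 9.73 with shGFP, 9.30 with shTRIB1-1 and 9.08 with shTRIB1-2, the checkpoint kinase BUB1B at 9.49, 8.95 and 9.14, and KIF23, a kinesin of cytokinesis, at 8.47, 8.17 and 7.90. The hexamer was in 15.2% of all windows, in 13.7% of measured genes with a window and in 17 of 23 such mitosis genes. The 17 had a median of -0.537 and the 6 without it -0.521, and all were lower on both. Over all 1191 measured genes with the hexamer 37.6% were lower on both, against 34.9% without it.

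Replication genes followed, with 22 of 26 lower on both and 1 higher (34.7% and 25.0% of all genes). Their medians were -0.267 and -0.304. The clamp loader subunits RFC4 (10.16, 9.51 and 9.52) and RFC3 (9.41, 8.97 and 9.06), the licensing factor CDC6 (7.60, 7.17 and 7.09), the polymerase POLA1 (8.40, 7.97 and 7.89) and the primase PRIM1 (9.35, 8.98 and 8.50) were lower on both. The hexamer was in 1 of 23 windows of this list. Cyclin E2, CCNE2, was split at 0.24 and -0.55. Again all 26 were below 2D on both labelled arrays, with a median of -1.19, and shGFP was below 2D too (-0.803).

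Genes that act before replication were more often higher than lower against shGFP. Of 14 G1 cyclins, kinases and inhibitors, 8 were higher on both and 2 lower (25.0% and 34.7% of all genes). The medians were 0.239 and 0.153. CDKN1B (p27), an inhibitor of cyclin-dependent kinases, was at 10.48 with shGFP, 11.49 with shTRIB1-1 and 11.04 with shTRIB1-2. Its relative CDKN1C (p57) was at 7.33, 8.88 and 7.96, and cyclin D1, CCND1, at 10.18, 11.38 and 10.55. All were higher on both, with the larger difference on the first hairpin. CDKN2A differed by -0.21 and -0.19, and its neighbour CDKN2B was split at 0.13 and -0.71. Against 2D, 4 of the 14 were higher on both labelled arrays and 6 lower (34.2% and 37.2% of all genes). The shGFP array was above 2D in 4, with a median of -0.18. With a level filter of 8 the list's median of the mean difference was 0.0615 in place of 0.167. The p53 targets had no common direction, 5 of 15 higher on both and 4 lower. PC-3 is known to lack functional p53. TP53INP1 was the highest of them at 7.49, 8.37 and 9.22.

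Interferon-stimulated genes were higher with both hairpins. Of 29 measured, 19 were higher on both and 2 lower on both (25.0% and 34.7% of all genes). The medians were 0.357 and 0.536. Without probe sets that can cross-hybridise (names ending in _s_at or _x_at) the median of the mean difference was 0.507 instead of 0.37. ISG15, a ubiquitin-like modifier, was at 10.74 with shGFP, 11.68 with shTRIB1-1 and 11.48 with shTRIB1-2, and IFIT1, which binds foreign RNA, at 8.30, 8.86 and 8.86. The RNA sensor IFIH1 (MDA5) was at 6.42, 7.36 and 7.14, SAMD9 at 5.80, 6.92 and 6.78 and GBP2 at 5.78, 8.09 and 6.62. SAMD9 and GBP2, like GBP1, passed the level minimum through the labelled arrays only. With no level filter the list's median of the mean difference was 0.348. IFI6 (6.43, 6.42 and 8.23) and IRF9, a subunit of the interferon-activated factor ISGF3 (6.99, 6.73 and 8.25), were higher with the second hairpin alone. The 2D array gave 10.70 for ISG15, below the labelled arrays, but 7.25 for SAMD9, above them. The shGFP array, which held a hairpin too, lay at a median of -0.157 from 2D, and the labelled arrays at 0.354.

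Antigen presentation by MHC class I was higher on both in 12 of 14 genes and lower on both in 0. Over all genes 25.0% were higher on both and 34.7% lower. The class I medians were 0.451 and 0.245. B2M, the light chain, was at 12.41 with shGFP, 12.92 with shTRIB1-1 and 12.71 with shTRIB1-2. HLA-C was at 9.46, 10.19 and 9.72 and HLA-B at 8.87, 9.60 and 9.10, paralogs whose probes can share signal. The peptide trimmer ERAP1 (8.17, 8.73 and 8.57) and tapasin, TAPBP (7.58, 7.98 and 8.15), which loads the peptide, were higher on both. The peptide transporter's subunits TAP1 (0.52 and -0.02) and TAP2 (0.07 and -0.24) were split. The list's median of the mean difference was 0.31, and it was 0.143 without the probe sets named above and 0.0773 against 2D. Against 2D, 6 genes were higher on both labelled arrays and 4 lower (34.2% and 37.2% of all genes). The shGFP array was above 2D in 2 of the 14, with a median of -0.248. A low shGFP array and high shTRIB1 arrays cannot be told apart here.

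The interferon-stimulated response element, GAAA repeated after any 2 bases, is shown for GBP1 (minus strand of chromosome 1, 89065302 to 89065359, letters on the opposite strand), ISG15 (plus strand of 1, 1013366 to 1013423), B2M (plus strand of 15, 44711355 to 44711412) and SAMD9 (minus strand of 7, 93118082 to 93118139). In ISG15 and B2M a pair of overlapping matches is marked.
GBP1: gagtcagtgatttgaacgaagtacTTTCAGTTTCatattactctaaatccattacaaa
ISG15: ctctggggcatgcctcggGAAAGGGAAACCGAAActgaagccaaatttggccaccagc
B2M: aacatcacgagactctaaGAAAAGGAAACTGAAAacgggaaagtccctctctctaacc
SAMD9: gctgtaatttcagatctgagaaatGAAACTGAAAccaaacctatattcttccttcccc
It was in 3.57% of all windows and in 3.69% of measured genes with a window. In the lists, 18 of 24 interferon-stimulated genes with a window and 10 of 13 class I genes held it. Of the 18, 12 were higher on both and 2 lower, and of the 10, 8 were higher and 0 lower. GBP1 and SAMD9, counted here, passed the level minimum through labelled arrays only, so their direction followed from the filter. The genes printed were chosen after their values were seen, and all were higher on both. IFI6, TAP1 and TAP2 held the element too and were split between the hairpins. The 6 interferon-stimulated genes without the element were higher on both in 3 and lower in 0. Over all 322 measured genes with the element 30.1% were higher on both, against 24.6% without it.

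Factors of the NF-kB pathway and the inhibitors that feed back on it were higher mainly with the first hairpin. Of 12, 7 were higher on both and 0 lower (25.0% and 34.7% of all genes), with medians of 0.554 and 0.0945. By the difference closer to 0, those next to TNFAIP3 were the deubiquitinase CYLD (7.11, 8.12 and 7.94) and the subunit REL (5.98, 6.46 and 6.47), on which the hairpins were close. TNIP1 (9.16, 10.10 and 9.29) and NFKBIA, the inhibitor I-kappa-B alpha (9.33, 9.95 and 9.43), were clearly higher with shTRIB1-1 and near shGFP with shTRIB1-2. The kB letters, GGGA and CC with any 4 bases between them, are shown for TNFAIP3 (plus strand of chromosome 6, 137867168 to 137867225, match on the opposite strand). They are loose and were in 25.6% of all windows and 38.1% of measured genes with a window. In the list 10 of 11 genes held them, 6 of these higher on both. Over all measured genes with the letters 26.6% were higher on both, against 23.7% without them.
TNFAIP3: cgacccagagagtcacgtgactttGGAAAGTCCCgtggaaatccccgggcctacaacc

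Cytokines and chemokines differed between the hairpins. Of 12, 5 were higher on both and 2 lower (25.0% and 34.7% of all genes). The median was 0.864 on shTRIB1-1 and -0.0136 on shTRIB1-2. With no level filter the list's median of the mean difference was 0.0541 in place of 0.458. IL6 was at 6.51 with shGFP, 8.09 with shTRIB1-1 and 7.42 with shTRIB1-2, CCL20 at 4.79, 7.33 and 5.46 and CSF1 at 5.54, 6.47 and 6.05. CSF1 passed the level minimum through the labelled arrays only, so being higher there followed from the filter. CCL20 passed it through shTRIB1-1 alone, so only its direction on that array followed from the filter. The neutrophil attractant CXCL8 was at 10.54, 11.94 and 10.26 and IL18 at 9.54, 10.83 and 9.19, both higher with the first hairpin and lower with the second. CXCL1 was lower on both, at 9.10, 8.74 and 8.44. All 12 were above 2D on both labelled arrays, with a median of 2.22, and shGFP was above 2D in 11. Receptors and adaptors that sense microbes had no common direction, 2 of 9 higher on both and 4 lower. The kinase IRAK2 was higher at 7.93, 9.25 and 8.40, and TLR4, given above, was the lowest.

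**Figure D4:**
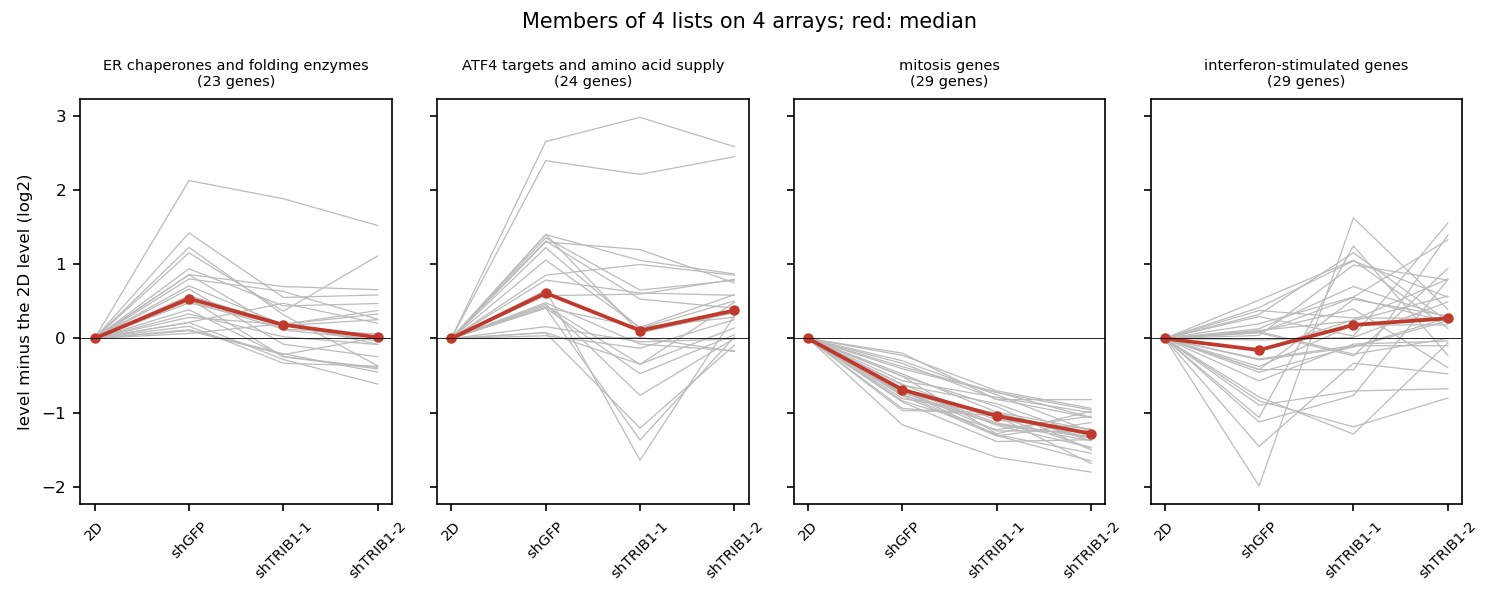
Level on each array minus the 2D level (log2, y axis) for the members of 4 gene lists on the 2D, shGFP, shTRIB1-1 and shTRIB1-2 arrays (x axis); a grey line joins the values of 1 gene and red marks the median, and the order of arrays is not a time course. ER chaperone and ATF4 genes are highest at shGFP (medians of 0.537 and 0.612), mitosis genes step down from 2D (a median of -0.69 at shGFP), and interferon-stimulated genes are lowest at shGFP (-0.157).

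Matrix and adhesion genes were higher with the first hairpin and less so with the second. Of 21 collagens and basement membrane genes, 13 were higher on both and 2 lower (25.0% and 34.7% of all genes). The medians were 0.602 and 0.125. The basement membrane collagens COL4A1 (7.31 with shGFP, 8.41 with shTRIB1-1 and 8.37 with shTRIB1-2) and COL4A2 (8.24 with shGFP and higher by 1.96 and 0.76), COL12A1 (7.38, 8.37 and 8.24) and COL5A1 (7.14, 8.80 and 7.82) were higher on both. COL6A3 was lower at 6.40, 5.88 and 5.30. COL8A1 was higher with the first hairpin only, by 1.49 against -0.06. Integrins gave 7 of 14 higher on both and 1 lower, with medians of 0.535 and 0.0134. Against 2D, 5 integrins were higher on both labelled arrays and 2 lower (34.2% and 37.2% of all genes), with a median of 0.278. The shGFP array was above 2D in 4 of the 14. ITGB1, the shared beta chain of many matrix receptors, was at 12.79, 13.57 and 13.10, and FERMT2 (kindlin-2), which activates integrins, at 11.22, 12.42 and 11.88. ITGB4, of hemidesmosomes, was the 1 that was lower, at 9.26, 8.19 and 8.66. ITGAV (1.15 and -0.05) and ITGB5 (1.45 and -0.01) again differed with the first hairpin alone.

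Of 15 proteases of the ADAM, ADAMTS and MMP families with their inhibitors, 7 were higher on both and 3 lower. Over all genes 25.0% were higher on both and 34.7% lower. The list's median of the mean difference was 0.201, but 0 with no level filter. It was 0.0145 without probe sets ending in _s_at or _x_at, and 0.0144 against 2D. Against 2D, 5 were higher on both labelled arrays and 3 lower (34.2% and 37.2% of all genes). After ADAMTS1 came the inhibitor TIMP2 (10.06, 11.56 and 10.97) and the sheddase ADAM10 (10.18, 10.93 and 10.74). The collagenase MMP1 was split at -1.99 and 0.31, and the gelatinase MMP9 at 1.00 and -0.36. Mesenchymal genes gave 5 of 14 higher on both and 2 lower. Fibronectin, FN1, was at 10.98, 12.47 and 11.84, above 2D (9.97) on all 3 arrays, and SPARC at 7.31, 7.42 and 9.29, higher with the second hairpin. Epithelial junction genes were divided, 8 of 18 higher on both and 7 lower. E-cadherin, CDH1, was higher at 9.99, 11.36 and 10.52 and P-cadherin, CDH3, at 7.79, 8.84 and 8.40, so that the adherens junction cadherins and fibronectin were higher on the same arrays.

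In TGF-beta and BMP signalling 9 of 18 genes were higher on both and 2 lower (25.0% and 34.7% of all genes). The medians were 0.388 and 0.211. ID2, a BMP target that blocks basic helix-loop-helix factors, was higher than its shGFP level of 7.20 by 0.80 with shTRIB1-1 and by 1.06 with shTRIB1-2. The ligand BMP4 was at 6.78, 7.25 and 7.91, and the pseudoreceptor BAMBI at 8.10, 8.99 and 8.78. The receptors TGFBR1 (0.32 and 0.56) and TGFBR2 (0.46 and 0.32) were higher on both, while TGFBI was split at 0.97 and -1.09. Targets of the co-activator YAP gave 8 of 17 higher on both and 4 lower. Besides NT5E, tissue factor F3 was higher at 5.88, 7.28 and 6.83, whereas CCN2, a common reporter of YAP, was split at -0.27 and 0.38. FOXO factors and targets gave 8 of 16 higher on both and 2 lower. FOXO1 was at 6.82, 7.60 and 7.16, PIK3R3 at 8.22, 8.85 and 9.72 and IRS2 at 9.17, 10.01 and 9.54, while the insulin receptor substrate IRS1 was lower at 10.34, 9.62 and 9.37.

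Partners of TRIB1 showed no common direction. Of 11 genes of the family, COP1 complex and C/EBP factors, 3 were higher on both and 4 lower (25.0% and 34.7% of all genes). The medians were 0.0343 and 0. Next to TRIB3, CUL4A, the scaffold of the ligase, was at 9.57 with shGFP, 9.47 with shTRIB1-1 and 8.25 with shTRIB1-2, lower on both and almost wholly so with the second hairpin. Without probe sets ending in _s_at or _x_at its mean difference was 0.348 in place of -0.715. DDB1 differed by 0.08 and 0.10. TRIB2 differed by 0.08 and 0.24, DET1, of the COP1 complex, was split at 0.52 and -0.51, and CEBPG by -0.35 and -0.19. The ERK feedback genes, which report the pathway downstream of MEK1, gave 4 of 15 higher on both and 2 lower. SPRED1 was higher by 0.37 and 0.37 and ETV5 differed by -0.30 and -0.30, while EGR1 was at 8.24, 7.50 and 9.57 and SPRY4 at 7.36, 6.88 and 8.24, split between the hairpins. Of 8 regulators of G protein signalling, 3 were higher on both and 2 lower, and RGS5 (-0.27 and 1.25) was split. In the vitamin D list, where VDR and CALB1 were the lower members, 2 of 7 were higher on both, RXRA, the partner of VDR, by 0.18 and 0.53 and the channel TRPV6 by 0.16 and 0.04.

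Among metabolic genes, glycolysis and the hypoxia response were lower on both in 17 of 24 and higher in 2. Over all genes 34.7% were lower on both and 25.0% higher. The list's medians were -0.215 and -0.231. The glucose transporter SLC2A1 (GLUT1) was at 8.53 with shGFP, 7.78 with shTRIB1-1 and 7.78 with shTRIB1-2. HK1 was at 10.88, 10.61 and 10.46 and PGAM1 at 12.50, 12.21 and 12.08. The peptide hormone ADM was an exception at 9.50, 11.09 and 10.19. Respiratory chain and ATP synthase genes were lower on both in 17 of 21 and higher in 1, by small amounts (medians of -0.121 and -0.14), with NDUFA9 of complex I at 10.98, 10.64 and 10.40. Against 2D, 10 of these 21 were lower on both labelled arrays and 4 higher, with a median of -0.0612. Of the 24 glycolysis and hypoxia genes, 13 were lower than 2D on both and 8 higher, with a median of -0.174. Over all genes 37.2% were lower than 2D on both and 34.2% higher. Ribosomal protein genes were close to even, 2 of 12 higher on both and 4 lower, with medians of -0.0241 and -0.00911.

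Sterol and fatty acid synthesis was higher on both in 11 of 20 and lower in 3 (25.0% and 34.7% of all genes). The medians were 0.298 and 0.0935. SC5D, of late cholesterol synthesis, was at 9.52 with shGFP, 10.20 with shTRIB1-1 and 10.10 with shTRIB1-2, HMGCS1 at 8.50, 9.64 and 8.85 and LSS at 8.71, 9.12 and 9.13. MSMO1 was split at 0.51 and -0.75. All 3 hairpin arrays were lower than 2D here, shGFP by a median of -0.856 and the labelled arrays by -0.593. The list's median of the mean difference was 0.181 against shGFP and -0.161 against the mean of shGFP and 2D. Without probe sets ending in _s_at or _x_at it was 0.0183 against shGFP. Lysosome and autophagy genes were higher on both in 16 of 25 and lower in 2, with medians of 0.26 and 0.0548. GABARAPL1, of the autophagosome, was at 6.97, 7.87 and 7.83, the protease CTSB at 9.14, 10.99 and 9.71 and the autophagy receptor OPTN at 7.97, 8.98 and 8.48.

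Of the small RNA pathway, which processes hairpins, 6 of 11 genes were higher on both and 2 lower (25.0% and 34.7% of all genes). DICER1, which cuts hairpin precursors, was at 7.92 with shGFP, 9.65 with shTRIB1-1 and 8.63 with shTRIB1-2, and at 8.36 in 2D, and TNRC6A, of the silencing complex, at 8.83, 9.57 and 9.52. The nuclear enzyme DROSHA differed by -0.34 and -0.11. The apoptosis regulators were divided, 6 of 17 higher on both and 7 lower. CASP8 (8.59, 9.11 and 9.18) and the pro-apoptotic BCL2L11 (7.93, 8.81 and 8.44) were higher, and the anti-apoptotic BCL2L1 (9.41, 8.86 and 9.01) was lower. Of 12 tumour-propagating cell markers 3 were higher on both and 3 lower, with CD24 at 8.58, 9.11 and 9.86 and CD44 split at 0.16 and -0.55. Of 8 prostate luminal genes 1 was higher on both and 3 lower, FKBP5 the furthest at 8.57, 7.37 and 8.04.

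**Figure D5:**
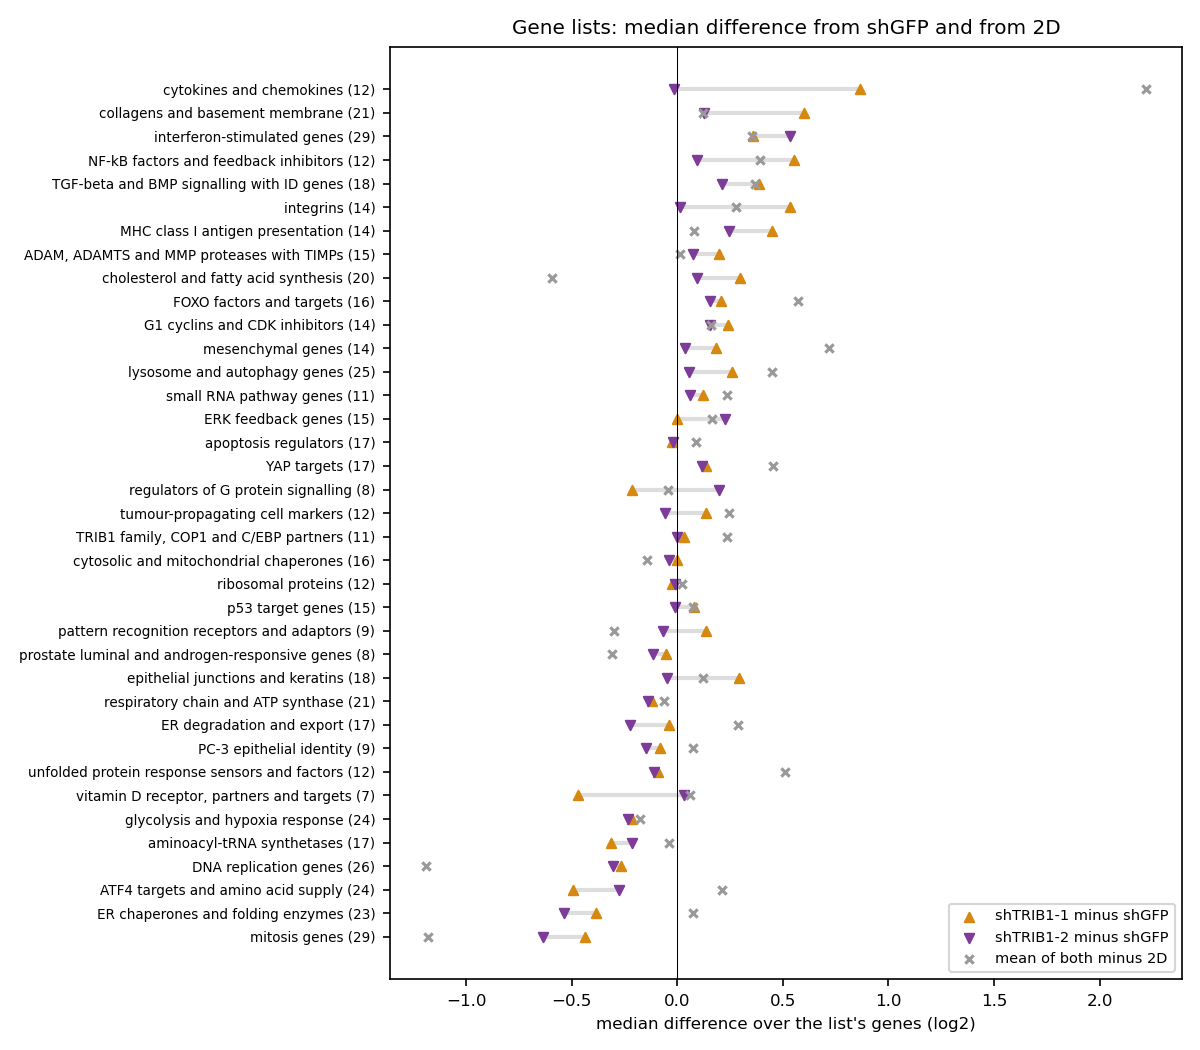
Median difference over the measured genes of each list (log2, x axis), the number of genes in brackets, for shTRIB1-1 minus shGFP, shTRIB1-2 minus shGFP and the mean of both minus 2D. Mitosis, ER chaperone, ATF4, synthetase, replication and glycolysis genes lie below -0.2 with both hairpins, the vitamin D list does so with the first alone (-0.47), the cytokine and collagen lists have a wide gap between hairpins (0.864 and -0.0136, 0.602 and 0.125), and the cross of the ER chaperone and ATF4 lists lies above 0 (0.0728 and 0.214).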

How the data were processed

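Per the labels' protocols, total RNA was extracted with RNeasy columns and biotin-labelled by the Affymetrix procedure. The authors deposited RMA intensity values per probe set, per the submitters' processing notes, and the values themselves are linear. The sources used here do not name the RMA version, the chip definition file or the step back to a linear scale. Quantile normalization in RMA hides a change common to most genes. Arrays have no sequencing depth, and their number limits the precision.

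Log2 of each deposited intensity was taken without a pseudocount. Of 54675 probe sets, 41097 carried 1 gene symbol in the platform annotation, 1801 several and 11777 none. Entrez identifiers of 41043 matched RefSeq genes and updated 0 symbols. Each gene took the probe set whose mean over 5 arrays was highest, and was described at a level of at least 6 on any of the 3 hairpin arrays. Differences were taken per hairpin from shGFP, with 2-fold on both as the count rule. limma 3.58.1 in R 4.3.3 (lmFit, eBayes with trend, Benjamini-Hochberg adjustment at 0.05, 1 residual degree of freedom) was tested on simulated data. The pass mark of that test applied only to simulated arrays of small noise. It does not show what the fit can call at the spread of the arrays used here. Replicates 1 and 2 of shTRIB1 are different hairpins.

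The members and the 39 gene lists (764 genes, 699 with a probe set) were chosen with earlier results of these data known. Genes were named by rule: TRIB1, the 30 highest and 30 lowest by the difference closer to 0 with both hairpins agreeing in sign, and per list up to 6 such genes and up to 2 on which the hairpins had the widest gap. Genes named for a printed promoter are exceptions chosen after their values were seen. Promoter windows (250 bases before to 50 after the start) are RefSeq's for GRCh38.p14, matched by symbol for 8723 of 10522 genes. Motifs were searched on both strands, overlapping matches included. Alternatives tried were other level filters, probe set rules, centring, references, limma settings and each hairpin left out.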

Additional observations from a re-analysis of the deposited data

How the results depend on the processing

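The choice of reference array mattered most. Against the 2D array alone, a reference chosen after seeing the data, the list medians of ER chaperones (0.0728) and ATF4 genes (0.214) changed sign, as did SLC16A14 (-0.0478), TXNIP (-0.962), VASH2 (-0.581), CALB1 (1.67), CHAC1 (0.211), HERPUD1 (0.822), CRELD2 (0.569), FSIP1 (0.502), SLC3A2 (0.469), BEX2 (0.136) and TRIB3 (0.32), in all 3 of the 30 highest and 7 of the 30 lowest genes. The lists of ER degradation (0.289) and of sensors and factors (0.512) turned too, also against the mean of shGFP and 2D (0.0834 and 0.247). So did sterol and fatty acid synthesis, from 0.181 to -0.593 against 2D and -0.161 against that mean. The 14 genes with the ER stress element had a median of 0.299 against 2D. The synthetase median became -0.0406, mitosis -1.18, replication -1.19 and MHC class I 0.0773, and 236 genes were at least 2-fold higher and 195 lower on both. Against the mean of shGFP and 2D, CALB1 was at 0.00722, the medians were -0.154 for ER chaperones, -0.124 for ATF4 genes, -0.168 for synthetases, -0.858 for mitosis and -0.745 for replication, and 82 genes were higher and 22 lower. TRIB1 was at 0.333 against that mean and 0.794 against 2D. With a level filter of 8, 23 genes were at least 2-fold higher, and with the median over probe sets 20 were higher and 4 lower, AQP3 being at 0.433 and COL1A1 at 0.0565. Without probe sets ending in _s_at or _x_at the interferon median was 0.507 and that of MHC class I 0.143. Leaving out each hairpin in turn gave 141 to 210 genes at least 2-fold higher and 86 to 196 lower, and medians of -0.538 to -0.387 for ER chaperones, -0.492 to -0.274 for ATF4 genes, -0.312 to -0.214 for synthetases, -0.637 to -0.438 for mitosis, -0.304 to -0.267 for replication, 0.357 to 0.536 for interferon-stimulated genes and 0.245 to 0.451 for MHC class I. Limma called 0 genes in each of 7 settings, with smallest adjusted p-values of 0.557 to 0.991. In limma, the count at an unadjusted p under 0.05 was 1616 with no level filter. No paired analysis was possible because shGFP has 1 array. Low signal limits the 15 higher genes with shGFP below 6.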
